A study of Rattus norvegicus with 6 samples.

Results

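The miR-99/100 and miR-125 families were examined in small RNA libraries of rat hippocampus after oral B[a]P, the combustion product benzo[a]pyrene, or after vehicle. Members were the mature miRNA names rno-miR-99a, rno-miR-99b, rno-miR-100, rno-miR-125a and rno-miR-125b with any locus number and arm, which gave 11 of the 765 names listed, 6 of the miR-99/100 family and 5 of the miR-125 family. The B[a]P group was Sprague-Dawley rat hippocampus after daily oral gavage of 2.0 mg/kg B[a]P in corn oil. The control group was hippocampus of the same strain after gavage of an equal volume of corn oil alone. The labels gave an age of 7 weeks for all libraries, and for RNA-seq a gavage period of 7 weeks. They did not say when that age was reached, how many animals entered a library, or whether the assays shared animals. Each group had 1 small RNA library and 1 RNA-seq library, so every comparison below is between 2 libraries, has no replicate check, and cannot separate the treatment from differences between animals or dissections.

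A miRNA gene is transcribed as part of a longer RNA, from which a hairpin is cut and then trimmed to a short duplex. One strand of the duplex, from the 5p or the 3p side of the hairpin, is kept by an Argonaute protein, and its seed, bases 2 to 8, pairs with target mRNAs and lowers their output. The miR-125 family is the vertebrate counterpart of lin-4, the first miRNA found in worms, and its genes lie in clusters with a miR-99/100 gene and a let-7 gene. miR-125b and let-7 restrain the RNA-binding protein LIN28, and miR-99/100 has been reported to repress mTOR, the kinase that couples nutrients to growth. In rodent neurons miR-125a and miR-125b have been reported to act on synaptic mRNAs, those of PSD-95 and of the NMDA receptor subunit GluN2A.

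The mature sequences are shown because the members differ by their seeds, and a seed decides which mRNAs can be paired. Of the 11 names, 10 matched a mature sequence of the RefSeq miRNA table (build GRCr8), and miR-99a-5p is named only. The 5p arms are written 5′ to 3′ with the seed in capitals, followed by miR-351-5p, which is no member but has the seed of the miR-125 family.
miR-99b-5p: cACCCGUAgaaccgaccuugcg
miR-100-5p: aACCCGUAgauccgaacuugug
miR-125a-5p: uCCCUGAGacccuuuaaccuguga
miR-125b-5p: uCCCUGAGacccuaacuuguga
miR-351-5p: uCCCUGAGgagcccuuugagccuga
miR-99b-5p and miR-100-5p had the same seed and differed at 4 of 22 positions, C1A, A11U, C16A and C21U, counted from the 5′ end with the base of miR-99b-5p first. miR-125a-5p and miR-125b-5p shared their first 13 bases and parted after them.

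The 3p arms, with the seed again in capitals, fell into 5 seeds among 6 names.
miR-99a-3p: cAAGCUCGuuucuaugggucug
miR-99b-3p: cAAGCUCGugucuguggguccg
miR-100-3p: cAAGCUUGugucuauaggu
miR-125a-3p: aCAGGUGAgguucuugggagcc
miR-125b-1-3p: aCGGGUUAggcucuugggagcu
miR-125b-2-3p: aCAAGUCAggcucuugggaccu
miR-99a-3p and miR-99b-3p had the same seed, while C7U set miR-100-3p apart from both. The 3p arms of the 2 miR-125b genes differed at 4 of 22 positions, G3A, G4A, U7C and G20C with miR-125b-1-3p first, and 3 of these lie in the seed. The 3p names therefore separated genes whose 5p products are identical.

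The hairpins lay in 3 clusters, on chromosomes 1, 8 and 11. On chromosome 1, Mir99b (chr1:67350064-67350133, plus strand, GRCr8) was followed by Mirlet7e after 95 bases, and 353 bases further by Mir125a (chr1:67350675-67350759). On chromosome 8, Mir100 (chr8:50798295-50798374) was followed by Mirlet7a-2 after 6828 bases, and 44737 bases further by Mir125b1 (chr8:50850036-50850122). On chromosome 11, Mir99a (chr11:29687392-29687472) was followed by Mirlet7c1 after 639 bases, and Mir125b2 lay beyond it, with its 5p arm at chr11:29732588-29732609. The sequence of miR-125b-5p was found in both Mir125b1 and Mir125b2, so reads of that arm cannot be assigned to either gene. Mir99b had the weakest preference for 5p among the 4 members with both arms listed, and Mir125b1 is a source of the arm listed at 0. Their hairpins are shown with both arms in capitals.
Mir99b: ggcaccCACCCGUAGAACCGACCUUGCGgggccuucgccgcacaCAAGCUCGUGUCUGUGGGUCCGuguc
Mir125b1: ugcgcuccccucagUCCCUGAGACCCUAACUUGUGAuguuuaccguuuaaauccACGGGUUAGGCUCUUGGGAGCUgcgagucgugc

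The small RNA values were deposited as reads scaled to the library's total (RPM), a unit taken from the values, since no label states it. Read numbers are not stated and were inferred from the values, by taking as 1 read the largest step of which nearly all values were whole multiples. These steps corresponded to 14.4 M reads in the B[a]P library and 16.3 M in the control library, of which miRNAs took 46.9% (B[a]P) and 37.1% (control). On this reading the smallest value above 0 was 10 reads in each library. Taken as 1 read instead, it made only 9.6% (B[a]P) and 8.7% (control) of values whole. All read numbers and counting intervals below rest on the inferred steps. Over 332 miRNAs at 10 RPM or more in either library, the median log2 ratio of B[a]P over control was 0.36, so most values lay higher after B[a]P. The neuronal miRNAs miR-124-3p, miR-128-3p, miR-132-3p and miR-138-5p were all present, with log2 ratios of 0.26 to 0.37. Of the oligodendrocyte miRNAs, miR-219a-5p was at 1.13 and miR-338-3p at 0.56, and the endothelial miR-126a-3p was at 0.37. Of the blood miRNAs, miR-144-3p was at 0.26, miR-486 at -0.01 and miR-451-5p at -0.23. All 5 choroid plexus miRNAs lay higher, summing to 8875 RPM in the B[a]P library and 1117 RPM in the control library. In the RNA-seq libraries the 8 choroid plexus mRNAs were all lower, summing to 65.0 FPKM with B[a]P and 3408 FPKM with corn oil, none of them at 0. Ttr alone was at 60.5 FPKM (B[a]P) and 3300 FPKM (control). Only 7 reached 1 FPKM in either library, since Otx2 was at 0.00692 FPKM (B[a]P) and 0.0180 FPKM (control). Choroid plexus markers thus went in opposite directions in the small RNA and RNA-seq libraries, which limits setting miRNA ratios beside mRNA ratios. The part of these tissue differences in the values below was not tested.

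The 5p arms of the miR-99/100 family were abundant in both libraries. miR-99a-5p had 19006 RPM in the B[a]P library and 14411 RPM in the control library, and ranked 5 of 765 names in each. Only miR-9a-5p, miR-128-3p, miR-7a-5p and miR-26a-5p stood above it. miR-100-5p had 4269 RPM in the B[a]P library and 3103 RPM in the control library, and miR-99b-5p 2783 RPM (B[a]P) and 2215 RPM (control). The 3 arms held 374206 reads in the B[a]P library and 320920 in the control library, which was 5.55% (B[a]P) and 5.31% (control) of the reads assigned to miRNAs. Mature miRNAs are of nearly equal length, so RPM can be set side by side, although capture in library making also depends on sequence and was not tested.

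Within the miR-99/100 family, miR-99a-5p supplied most of the 5p reads, and its share was almost the same in both libraries. It made up 72.9% of them in the B[a]P library (95% exact binomial interval 72.8 to 73.1) and 73.0% in the control library (72.9 to 73.2). The shares of the other 2 moved in opposite directions by under 1 percentage point. miR-100-5p made up 16.4% in the B[a]P library (16.3 to 16.5) and 15.7% in the control library (15.6 to 15.9), and miR-99b-5p 10.7% with B[a]P (10.6 to 10.8) and 11.2% in the control (11.1 to 11.3). These last intervals do not overlap, but they cover counting error only, and PCR reads are not independent molecules. Reads that carry a mismatch could be split between such similar sequences by the authors' counting.

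In the miR-125 family 1 of the 5p names was abundant and the other was listed at 0. miR-125a-5p had 4932 RPM in the B[a]P library and 3530 RPM in the control library, rank 21 (B[a]P) and rank 24 (control). miR-125b-5p was listed at 0 in both libraries and was the one member so listed. Yet arms of the same hairpins were counted: miR-125b-2-3p had 5858 reads in the B[a]P library and 5480 in the control library, and miR-125b-1-3p had 801 (B[a]P) and 701 (control). No level, fold or limit is given for miR-125b-5p, because no value under 10 reads was listed and the files do not say what a 0 stands for. The seed of the family was also carried by miR-351-5p, an X-linked rodent miRNA, at 84.4 RPM in the B[a]P library and 61.8 RPM in the control library. miR-125a-5p therefore held nearly all listed reads of this seed, a sum that lacks whatever miR-125b-5p would add.

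A listed 0 was common in the table, both for sequences made by 1 gene and for those made by several. The counts cannot separate miRNAs without reads from any left out in counting. Why miR-125b-5p was at 0 was not tested. Of the 11 members 1 (9.09%) was at 0 in both libraries, against 262 of all 765 names (34.2%). Among 690 names with a RefSeq sequence, 10 of 40 (25%) whose sequence occurs in 2 or more genes were at 0, against 223 of 650 (34.3%) whose sequence occurs in 1 gene. Among 170 names whose other arm reached 100 RPM in either library, 31 (18.2%) were at 0. This share does not separate the arm that usually holds most reads from the lesser one. In the 4 members with both arms listed, 96.7% to 99.96% of reads were 5p. The 18.2% therefore does not say how often such an arm is at 0. let-7a-5p, the mature product of the let-7 gene in the chromosome 8 cluster, was also at 0 in both libraries, and its sequence too is made by more than 1 gene. Other sequences made by several genes were counted, such as let-7c-5p at 6483 RPM in the B[a]P library and 4716 RPM in the control library.

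The 3p arms were far lower and followed another order than the 5p arms. miR-125b-2-3p was the most abundant, with 408 RPM in the B[a]P library and 337 RPM in the control library, and made up 86.8% (B[a]P) and 87.5% (control) of the 3p reads of the miR-125 family. miR-99b-3p had 88.6 RPM in the B[a]P library and 76.5 RPM in the control library. It supplied 80.8% (B[a]P) and 81.5% (control) of the 3p reads of the miR-99/100 family, although miR-99b-5p was the least abundant 5p arm of that family. The gene with the most 5p reads, miR-99a, had only 19.6 RPM of 3p reads in the B[a]P library and 16.1 RPM in the control library.

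The remaining 3p arms were low. miR-125b-1-3p had 55.8 RPM in the B[a]P library and 43.1 RPM in the control library. miR-125a-3p had 6.20 RPM from 89 reads (B[a]P) and 5.16 RPM from 84 reads (control). miR-100-3p had 1.53 RPM from 22 reads (B[a]P) and 1.23 RPM from 20 reads (control). These last 2 were under 10 RPM in both libraries, so 8 members passed that floor, 2 were listed below it and 1 was at 0. The order miR-125b-2, miR-99b, miR-125b-1, miR-99a, miR-125a, miR-100 was the same in both libraries. Each neighbour differed from the next beyond counting error, the closest pair being miR-99b-3p and miR-125b-1-3p, whose ratio was 1.59 in the B[a]P library (95% interval 1.45 to 1.74) and 1.78 in the control library (1.62 to 1.95).

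**Figure D1:**
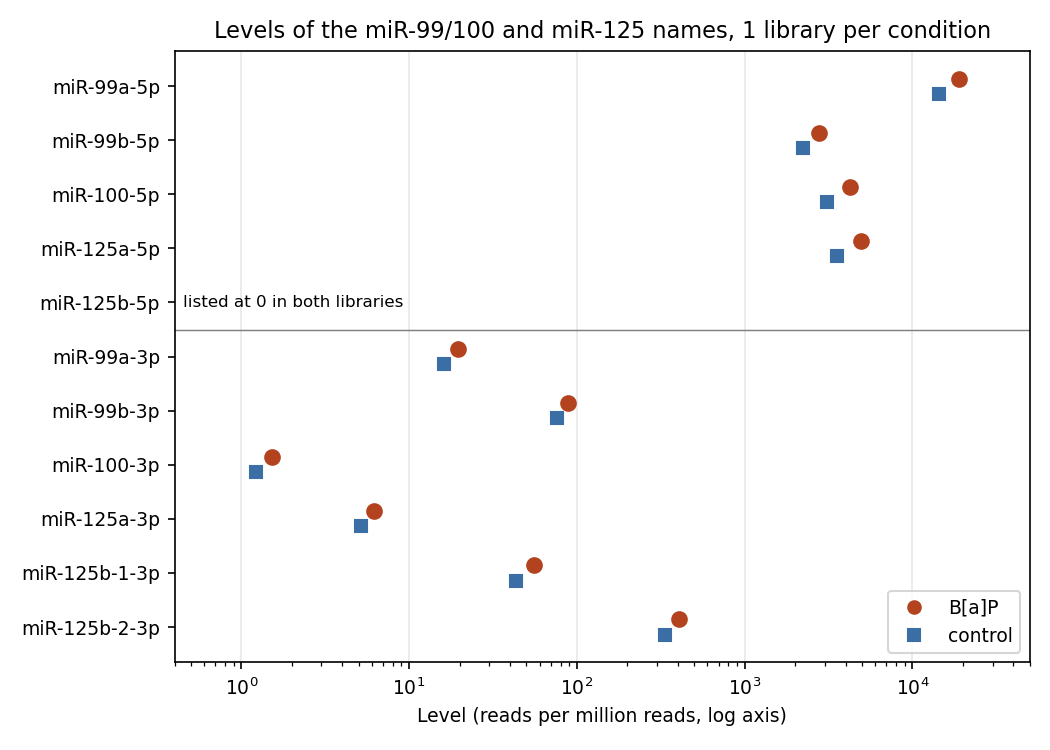
Level of each member in RPM on a log axis, with the B[a]P library as circles and the control library as squares, 5p arms above the line and 3p arms below it. miR-99a-5p lies highest at 19006 RPM (B[a]P) and 14411 RPM (control), miR-125b-5p has no point because it was listed at 0, and every other pair shows the B[a]P library slightly to the right.

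The 2 genes of miR-125b could be told apart by their 3p arms alone. miR-125b-2-3p, from chromosome 11, exceeded miR-125b-1-3p, from chromosome 8, by 7.31 times in the B[a]P library (95% interval 6.79 to 7.88) and 7.82 times in the control library (7.23 to 8.47). The intervals overlap. The cluster on chromosome 11 also held the most abundant 5p arm, miR-99a-5p, which exceeded miR-100-5p of chromosome 8 by 4.45 times in the B[a]P library (4.41 to 4.49) and 4.64 times in the control library (4.60 to 4.69). The intervals of this ratio of miR-99a-5p to miR-100-5p do not overlap, but they cover counting error only. In both families the listed arms of the chromosome 11 gene thus stood above those of its chromosome 8 paralogue, with ratios of similar size in both libraries.

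The comparison of the libraries asked whether levels of these miRNAs differed after B[a]P. All 10 members listed above 0 lay higher after B[a]P, by 1.16-fold to 1.40-fold, close to the median of 1.28-fold for the table. None of the 8 members at 10 RPM or more reached 2-fold. Over all 332 miRNAs at that level, 13 were at least 2-fold higher (3.92%) and 0 were at least 2-fold lower. At 1.5-fold, too, no member was counted, against 36 of all 332 miRNAs higher (10.8%) and 1 lower (0.301%). With bulk tissue, fewer cells of a type and less RNA per cell cannot be told apart.

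By arm, the ratios differed slightly. miR-125a-5p had the highest ratio, 1.40 (95% exact conditional binomial interval 1.38 to 1.41), and miR-100-5p followed at 1.38 (1.36 to 1.39). miR-99a-5p was 1.32-fold higher (1.31 to 1.33) and miR-99b-5p 1.26-fold higher (1.24 to 1.28). Among the 3p arms miR-125b-1-3p was at 1.29 (1.17 to 1.43), miR-99a-3p at 1.22 (1.02 to 1.44), miR-125b-2-3p at 1.21 (1.17 to 1.26) and miR-99b-3p at 1.16 (1.07 to 1.25). The intervals of miR-100-3p (0.649 to 2.41) and miR-125a-3p (0.881 to 1.64) included 1. The interval measures counting error and not the spread between animals, so a narrow one does not show a response to B[a]P.

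Relative to the table's median, members lay on both sides. On the scale of log2(RPM + 1), the 8 members had a median of 0.35 (range 0.21 to 0.48) and the 332 miRNAs a median of 0.36, with an interquartile range of 0.23 to 0.47. The difference from the table's median was 0.12 for miR-125a-5p, 0.10 for miR-100-5p, 0.04 for miR-99a-5p and -0.03 for miR-99b-5p. It was 0.01 for miR-125b-1-3p, -0.08 for miR-125b-2-3p, -0.09 for miR-99a-3p and -0.15 for miR-99b-3p. Of 4 members with a 5p arm, 3 lay above the median, and of 4 with a 3p arm 1 did. Over the whole table the 5p names (median 0.35, n = 140) and the 3p names (0.36, n = 152) did not show this order. The fold intervals of miR-125b-1-3p (1.17 to 1.43) and miR-99a-3p (1.02 to 1.44) included the table's median of 1.28. The side of the median on which each of these lay is thus within counting error. Scaling by the median of ratios shifted the B[a]P values by -0.37 on the log2 scale, and the log2 ratios of low miRNAs by less because of the pseudocount. It put the summed 3p arms at -0.09 and miR-99b-5p at -0.04, below 0. miR-125a-5p, at 0.12, miR-100-5p, at 0.09, miR-99a-5p, at 0.03, and miR-125b-1-3p, at 0.0059, stayed above 0.

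**Figure D2:**
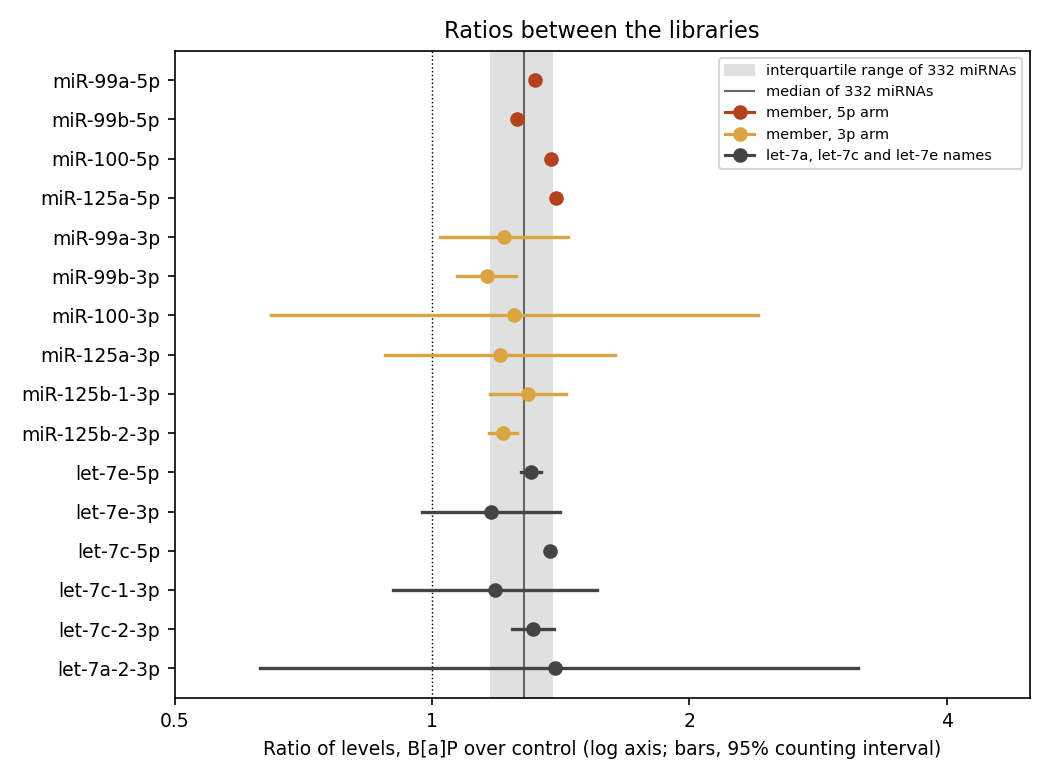
Ratio of levels, B[a]P over control, on a log axis, for the 10 members listed above 0 and 6 let-7 names of the cluster genes or their paralogues; bars are 95% counting intervals. The grey band is the interquartile range of 332 miRNAs and the line their median of 1.28, and most points lie in or near the band, with miR-125a-5p at 1.40 on its right and miR-99b-3p at 1.16 on its left.

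Arm preference was strong and alike in both libraries. miR-100 had 2786 reads of the 5p arm per 3p read in the B[a]P library and 2524 in the control library. miR-99a had 971 in the B[a]P library and 895 in the control library, and miR-125a 796 (B[a]P) and 684 (control). miR-99b stood apart from its relatives with 31.4 in the B[a]P library and 29.0 in the control library, so that 96.9% (B[a]P) and 96.7% (control) of its reads were 5p. Among 127 paralogues with at least 10 reads of each arm in each library, miR-100 ranked 2 in 5p preference and miR-99a 3. miR-125a ranked 5 (B[a]P) or 4 (control), whereas miR-99b ranked 26 in the B[a]P library and 30 in the control library. These ranks hold within that set only, since hairpins with either arm under 10 reads were left out. miR-26a, without listed 3p reads, was among those left out, with its 5p arm at 19490 RPM (B[a]P) and 14478 RPM (control). Hairpins of strong 5p preference can therefore be missing from the ranking.

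The 5p to 3p ratio was slightly higher in the B[a]P library for all 4 members with both arms. The ratio of ratios was 1.16 for miR-125a (95% exact conditional interval 0.853 to 1.59), 1.10 for miR-100 (0.572 to 2.12), 1.09 for miR-99a (0.914 to 1.29) and 1.08 for miR-99b, with an upper end of 1.18. Intervals for miR-125a, miR-100 and miR-99a included 1, and that of miR-99b had its lower end at 1 after rounding. The 3p reads, the fewer of the 2 arms, limit this precision. Over the 127 paralogues the log2 ratio of ratios had a median of -0.03, and 56 (44.1%) were above 0.

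**Figure D3:**
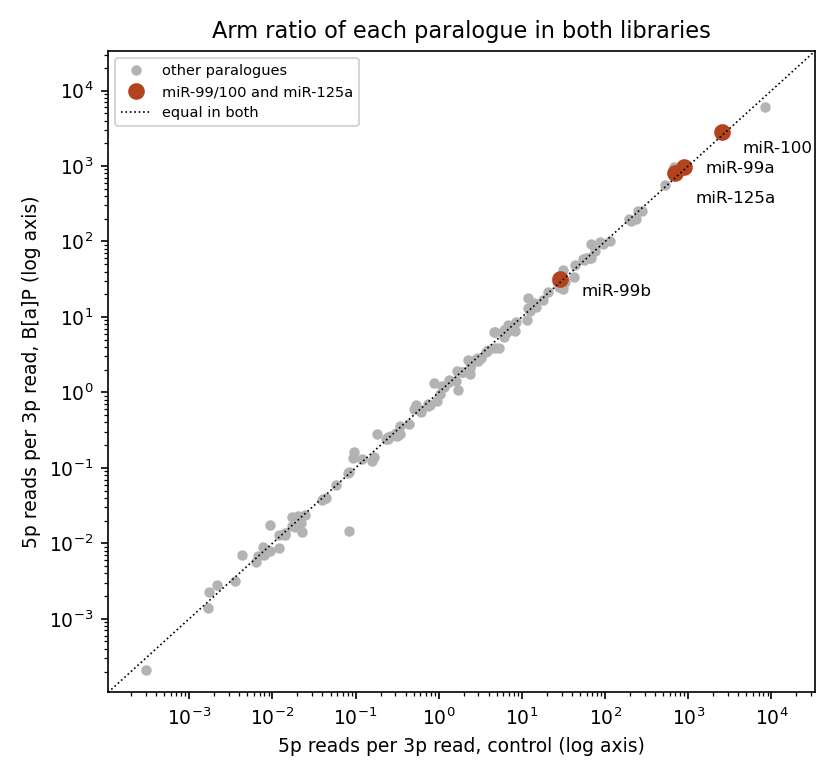
Reads of the 5p arm per read of the 3p arm in the B[a]P library (y axis) and the control library (x axis), both log axes, for 127 paralogues. The 4 members lie close to the line of equal ratios, with miR-100 at 2786 (B[a]P) and 2524 (control) near the top and miR-99b at 31.4 (B[a]P) and 29.0 (control).

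The let-7 names of the same clusters gave a similar picture. let-7e-5p, between Mir99b and Mir125a, had 819 RPM in the B[a]P library and 628 RPM in the control library, below the 5p arms of both its neighbours. Its ratio was 1.30 (95% interval 1.27 to 1.34), between those of miR-99b-5p and miR-125a-5p. let-7c-5p, the sequence of which is also made by Mirlet7c2, had a ratio of 1.38 (1.36 to 1.39). let-7a-2-3p had 16 reads in the B[a]P library and 13 in the control library, a ratio of 1.39 (0.629 to 3.15). let-7c-1-3p had 112 (B[a]P) and 107 (control), a ratio of 1.19 (0.90 to 1.56). let-7e-3p was at 1.17 (0.974 to 1.41). Of the paralogues outside these clusters, let-7c-2-3p was at 1.31 (1.24 to 1.39) and let-7a-1-3p was listed at 0 in both libraries. No ratio of these let-7 names reached 1.5, although the intervals of let-7a-2-3p and let-7c-1-3p extended past it. Over all 332 miRNAs at 10 RPM or more, 10.8% were at least 1.5-fold higher and 0.301% lower.

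Genes that hold or adjoin the hairpins were followed in the RNA-seq libraries, deposited as values taken to be FPKM. Spaca6, a gene known for sperm and egg fusion, overlaps Mir99b and Mir125a in RefSeq and was listed under its gene ID as LOC688452. It was at 5.37 FPKM with B[a]P and 5.02 FPKM with corn oil. LOC103693508, a long noncoding RNA that overlaps Mir99a and Mir125b2, was at 0.991 FPKM with B[a]P and 0.785 FPKM with corn oil. Vof16, a noncoding RNA next to Mir125b1, was at 2.31 FPKM (B[a]P) and 2.01 FPKM (control). All 3 lay higher after B[a]P by under 1.5-fold, as did most genes: the median log2 ratio over 13261 genes at 1 FPKM or more was 0.09. Mir100hgl and Lnc215, which overlap Mir100 and Mir125b1 in RefSeq, were not found among the mRNA values. No overlapping gene was thus followed for these hairpins. RefSeq gene names were used here for neighbourhood only, since its build differs from those the submitters name.

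Other neighbours included genes on both sides of that median. Cxadr, which encodes a cell adhesion protein, was at 9.60 FPKM with B[a]P and 8.29 FPKM with corn oil, and the ubiquitin protease gene Usp25 at 2.97 FPKM (B[a]P) and 3.29 FPKM (control). Btg3, an antiproliferative gene, was at 13.5 FPKM with B[a]P and 13.1 FPKM with corn oil, and Ubash3b, a phosphatase gene, at 6.14 FPKM (B[a]P) and 5.96 FPKM (control). Has1, a hyaluronan synthase gene beside Spaca6, was at 0.718 FPKM with B[a]P and 0.431 FPKM with corn oil, under the floor of 1 FPKM. Bsx, at 0.0788 FPKM (B[a]P) and 0.0124 FPKM (control), LOC102553133, at 0 FPKM (B[a]P) and 0.0442 FPKM (control), and Sord-ps2 (listed as LOC363732), at 0.0988 FPKM (B[a]P) and 0 FPKM (control), were also below it.

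Genes reported as targets of the miR-99/100 family differed little. Of 18 listed, 15 were at 1 FPKM or more in either library, and none was at least 2-fold higher or lower, against 20 higher (0.151%) and 69 lower (0.52%) of all 13261 genes, 0.671% in either direction. At 1.5-fold the members of this list again numbered 0, beside 0.603% of all genes higher and 1.18% lower. Their median on the scale of log2(FPKM + 1) was 0.08, beside 0.09 for all genes, and 7 of 15 lay above the median of all genes. Mtor was at 11.6 FPKM with B[a]P and 9.89 FPKM with corn oil. The most abundant were Bmpr2, a bone morphogenetic protein receptor gene, at 22.4 FPKM with B[a]P and 19.0 FPKM with corn oil, Ppfia3, a liprin gene of the synapse, at 21.9 FPKM (B[a]P) and 18.7 FPKM (control), and the kinase gene Akt1 at 19.8 FPKM (B[a]P) and 19.4 FPKM (control). The largest log2 ratio of this list, of Bmpr2, was 0.23.

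Reported targets of the miR-125 family had the lowest median of the 4 lists, also by a small margin. Of 36 listed, 27 were at 1 FPKM or more, and none passed 2-fold or 1.5-fold in either direction. Over all 13261 genes, 0.671% passed 2-fold in either direction, and at 1.5-fold 0.603% were higher and 1.18% lower. The median log2 ratio of the list was 0.05, with 10 of 27 above the median of all genes. Scaling the mRNA table by its median of ratios put the list's median at -0.05 and that of all genes at -0.0011. The same scaling put the miR-99/100 targets at -0.0123, the mTOR pathway list at -0.0195 and the miRNA processing list at 0.0529. Dusp6, which encodes a phosphatase of the ERK kinases, was farthest from the median of the miR-125 targets. It was at 24.0 FPKM with B[a]P and 31.8 FPKM with corn oil (log2 ratio -0.39). Sgpl1, a sphingosine phosphate lyase gene, was at 7.35 FPKM (B[a]P) and 5.89 FPKM (control), and Tbc1d1, a Rab regulator gene, at 6.43 FPKM (B[a]P) and 5.495 FPKM (control). The phosphatase gene Ppp1ca was the most abundant at 101 FPKM with B[a]P and 93.5 FPKM with corn oil, followed by the deubiquitinase gene Bap1 at 56.2 FPKM (B[a]P) and 49.8 FPKM (control) and by Grin2a, which encodes GluN2A, at 50.5 FPKM (B[a]P) and 48.8 FPKM (control). Lin28a and Lin28b were at most 0.183 FPKM with B[a]P and 0.168 FPKM with corn oil.

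The mTOR pathway list had a median log2 ratio of 0.08 over 25 genes, 12 of them above the median of all genes. Tsc2, which encodes an inhibitor of the mTOR activator Rheb, was at 11.6 FPKM with B[a]P and 9.04 FPKM with corn oil (log2 ratio 0.32), the largest log2 ratio of the list. The S6 kinase gene Rps6kb1 was at 7.30 FPKM (B[a]P) and 5.82 FPKM (control). Rheb itself was at 50.2 FPKM with B[a]P and 47.0 FPKM with corn oil. None of the 25 genes reached 1.5-fold, beside 0.603% of all genes higher and 1.18% lower.

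Genes of miRNA processing and silencing lay somewhat higher. Of 30 names, 28 genes were found and 25 were at 1 FPKM or more, with a median log2 ratio of 0.14 and 19 of 25 above the median of all genes. Dicer1, which encodes the enzyme that cuts hairpins to duplexes, was at 4.75 FPKM with B[a]P and 3.95 FPKM with corn oil. Xrn2, an exonuclease gene, was at 8.35 FPKM (B[a]P) and 6.93 FPKM (control), and Hnrnpa1, an RNA-binding protein gene, at 39.4 FPKM (B[a]P) and 34.3 FPKM (control). The helicase gene Ddx5 was at 167 FPKM with B[a]P and 146 FPKM with corn oil, the nuclear transport gene Ran at 81.7 FPKM (B[a]P) and 73.3 FPKM (control), and the helicase gene Ddx17 at 62.6 FPKM (B[a]P) and 59.5 FPKM (control). The 4 pan-neuronal marker mRNAs, summing to 696 FPKM with B[a]P and 569 FPKM with corn oil, were also all higher, as were the 4 astrocyte markers, at 602 FPKM (B[a]P) and 462 FPKM (control), and the 4 of microglia, at 29.03 FPKM (B[a]P) and 25.02 FPKM (control). Of 5 markers of hippocampal neurons, 3 were higher and 2 lower, and of 4 oligodendrocyte markers 1 was higher and 3 lower. All 4 markers of endothelium and mural cells were lower, and of 3 blood markers 2 were higher and 1 lower. The part of these markers in the list's median was not tested. Over all 13261 genes the quartiles of the log2 ratio were -0.0021 and 0.17, so most genes of any kind lay higher after B[a]P. Counts of markers that were higher are to be read beside that. No gene of the processing list reached 1.5-fold, beside 0.603% of all genes higher and 1.18% lower.

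**Figure D4:**
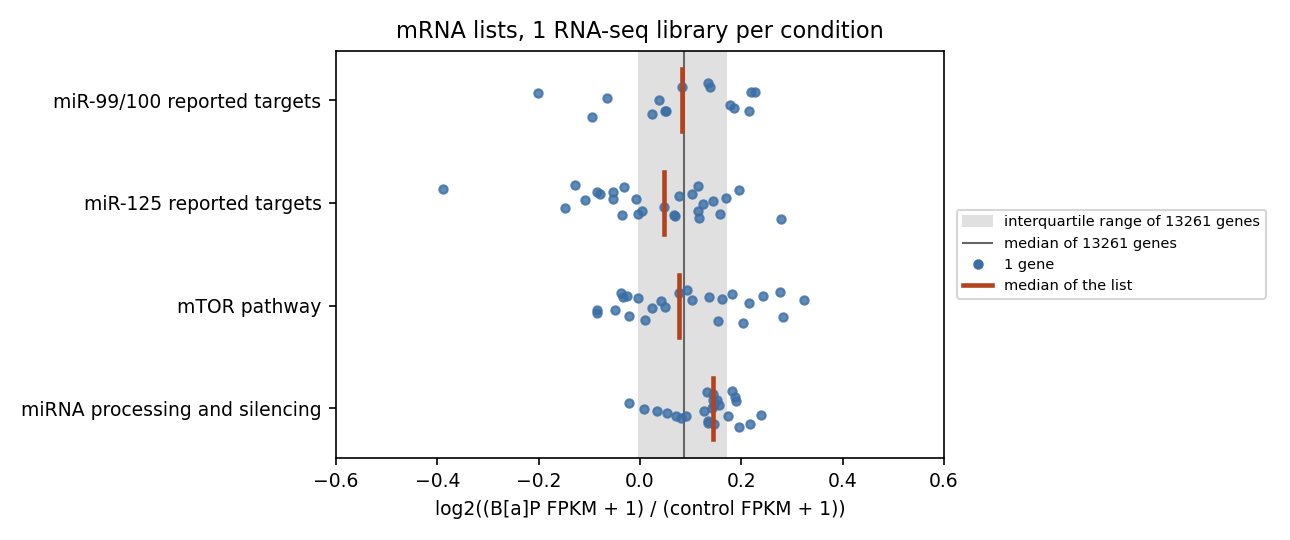
log2 ratio of each gene at 1 FPKM or more, B[a]P over control, in 4 lists; each point is 1 gene, the short bar the list's median, and the grey band the interquartile range of 13261 genes. List medians run from 0.05 (miR-125 targets) to 0.14 (miRNA processing), all within the band, and Dusp6 at -0.39 is the leftmost point.

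With 2 libraries, a pattern across samples is a single ratio, and many miRNAs shared those of the members. Among 187 other miRNAs with 1000 or more reads on average, the closest log2 ratios to that of miR-99a-5p (0.40) were of miR-376b-3p, miR-9b-5p and miR-16-5p, each 0.40, and 54 lay within 0.05 of it. The closest to that of miR-125a-5p (0.48) were of miR-3596a, miR-222-3p and miR-139-5p, each 0.48, and 33 lay within 0.05. The likeness rests on 2 libraries and is a description only.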

How the data were processed

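Per the labels' protocols, frozen hippocampus gave total RNA for small RNA and RNA-seq libraries. bcl2fastq and the builds rn6 and rn5 appear in the submitters' processing notes with no role; an aligner or counter is not given in the sources used here. Small RNA values are RPM and mRNA values FPKM as deposited by the authors, both units inferred from the values. In the miRNA tables, 99.6% (B[a]P) and 100.0% (control) of values above 0 came within 0.01 of a whole number of the library's inferred step, and read numbers are those whole numbers. No label names a strand or a rule for reads shared between similar sequences, which could move reads between paralogues. The lncRNA and methylation tables were not used here.

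Libraries were grouped by title. The log2 ratio of B[a]P over control used a pseudocount of 1, and folds used none. Each ratio of reads carries a 95% interval from the exact binomial test conditional on the sum, each share a Clopper-Pearson one. The intervals of ratios between libraries and the inferred step were tested on simulated reads, drawn independently and scaled by that step. The simulation held no PCR copies, so it checked the calculation only. Intervals of shares and of ratios of arm ratios were not tested in this way. With 1 library per group no p-value was computed. The size rule was an absolute log2 ratio of 1, over miRNAs at 10 RPM and genes at 1 FPKM in either library. Named mRNAs are, per list, the 3 highest in mean level and the 3 largest in absolute log2 ratio. Some genes this rule names in the mTOR list are not reported here. Target lists hold reported relations, also from other species. Every host or neighbour gene found is named; Lin28a and Lin28b were named in addition, after their values were seen. Members and lists were chosen with earlier results of these data known. Alternatives were other scalings (the trimmed mean of M values was computed directly from the read numbers, since each group had 1 library), other pseudocounts, floors, 5 reads added to each arm, and a 1.5-fold rule. Python 3.11.15, SciPy 1.17.1 and pandas 2.3.3 were used.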

Additional observations from a re-analysis of the deposited data

How the results depend on the processing

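With 1 library per group, a difference between the B[a]P and control libraries cannot be separated from differences between animals, and depth limits the 3p arms of miR-100 and miR-125a most. In all 8 alternatives, 0 members were 2-fold higher or lower. Scaling to the summed miRNA values, by the median of ratios or by the trimmed mean of M values shifted the B[a]P values against the control by -0.34, -0.37 and -0.37 (log2), and low miRNAs by less because of the pseudocount. Under these 3 scalings, in that order, the median of the 8 members was 0.013, -0.015 and -0.021 and that of all miRNAs 0.024, -0.0065 and -0.013. The summed 5p arms of miR-99/100 were at 0.064, 0.035 and 0.029, those of miR-125 at 0.14, 0.12 and 0.11, and all 3p arms at -0.062, -0.091 and -0.097. All miRNAs 2-fold lower numbered 1, not 0, under each of these scalings, with a pseudocount of 0.1 RPM, with no floor and at 1.5-fold. All miRNAs 2-fold higher numbered 26 with no floor, 6 with a floor of 100 RPM and 36 at 1.5-fold. Scaling the mRNA table by the median of ratios shifted it by -0.10 (log2), low genes by less. It put the median of miR-125 targets at -0.054, beside -0.0011 for all genes. Over all genes 53 were higher and 127 lower with a pseudocount of 0.1 FPKM, and 11 higher and 36 lower with a floor of 5 FPKM. The 5p shares of the 4 paralogues stayed within their intervals after 5 reads were added to each arm. For member and family ratios and 5p shares, a change was a move past the counting interval. For medians and for single mRNAs it was a move of 0.1 or more on the log2 scale. A count was taken as changed if it differed by more than 1.5 times, or if a 0 became another number. No paired analysis was possible because each group had 1 library.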
